A study of Mus musculus with 6 samples.

Results

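The genes described here code for SNAREs and the exocytosis machinery around them. They are those whose symbols begin with Stx, Vamp, Stxbp, Syt or Unc13 followed by a number or a letter from a to d, together with named genes of the SNAP25, NSF, complexin, synaptotagmin-like and SCAMP families. The rule took 65 of the 17890 genes in the table. RNA was sequenced from mast cells of mouse lymph nodes that held tumour metastases (mLN, 3 libraries) and of uninvolved nodes (uLN, 3 libraries). The sources used here do not give the tumour, the strain, age or genotype of the mice, or how the cells were isolated. Nothing in them ties a library to an animal, so the p-values below measure the spread among libraries alone, and that spread may be technical. The comparison sets the exocytosis genes of mast cells from a metastatic node beside those of mast cells from an uninvolved one.

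Regulated exocytosis joins a vesicle or granule to the plasma membrane through SNARE proteins, which stand on both membranes and wind into one bundle that draws them together. Syntaxins and the SNAP25 family supply the target side, and the VAMPs supply the vesicle side. Munc18 proteins (such as those of Stxbp2 and Stxbp3) and Munc13 proteins (the Unc13 genes) prepare the syntaxins, and synaptotagmins sense calcium or phospholipid. The NSF ATPase and its SNAP adaptors take spent bundles apart, complexins bind the bundles, and tomosyns hold assembly back. Mast cells depend on this machinery to release histamine, proteases and cytokines, and syntaxin 4, syntaxin 3, SNAP23, VAMP8, Munc18-2 and Munc13-4 are the parts best known from mast cell degranulation.

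The libraries held 17643916 to 17799420 estimated reads each, and the exocytosis genes took 0.337% to 0.341% of the reads in mLN and 0.349% to 0.352% in uLN. All 12 mast cell markers checked were present, at summed levels of 43000 to 45750 CPM (reads scaled to the size of the library after TMM normalisation) in mLN and 44040 to 45960 CPM in uLN. The close sums hold markers of both directions, 4 higher and 6 lower in mLN. The log2 fold change was -1.31 for Kit and -0.59 for Fcer1a, and 1.04 for Tpsb2, 1.01 for Cma1 and 2.01 for Mcpt4, and the part of these shifts in the results below was not tested. Markers of other cells were uneven between libraries. In mLN replicate 1, 6 of 8 keratinocyte, 6 of 7 fibroblast, 5 of 6 melanocyte and 6 of 7 skeletal muscle markers were highest. The 8 keratinocyte markers summed to 2962, 302 and 626 reads in mLN replicates 1, 2 and 3, against 318, 328 and 155 reads in uLN, and 14 of 18 neuronal and neuroendocrine markers were highest in uLN replicate 2. In bulk RNA, fewer cells of a type and less RNA per cell cannot be told apart.

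Of the 65 genes, 54 passed the filter on low counts and were tested with edgeR's quasi-likelihood test. P-values were adjusted over all 12706 tested genes by Benjamini and Hochberg's method, with 0.05 as the threshold for a call. Among the 54 genes 17 were higher in mLN and 13 lower, while 24 were not called. That is 55.6% of the tested exocytosis genes, where 67.4% of all tested genes were called, 33.2% higher and 34.2% lower. Their median log2 fold change (mLN over uLN) was 0.05, against -0.01 over all tested genes. Most of the 30 called changes were small, and 17 of them were under 1.5-fold. The 8 genes that rose by at least 1.5-fold included Vamp4, Sytl1, Syt12, Vamp5, Unc13b, Scamp1 and Stx6, and the 5 that fell by at least 1.5-fold were Vamp8, Syt5, Stx4a, Sytl2 and Stxbp5. Over all tested genes 17.1% rose and 15.3% fell by that much, against 14.8% and 9.26% of the exocytosis genes. The mLN and uLN libraries did not overlap for 35 of the 54 tested exocytosis genes (64.8%), the 30 called ones among them, and for 72.9% of all tested genes. Without mLN replicate 1 and uLN replicate 2, the libraries in which most keratinocyte and most neuronal markers peaked, 16 exocytosis genes were higher and 12 lower, an alternative chosen after the data were seen.

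**Figure D1:**
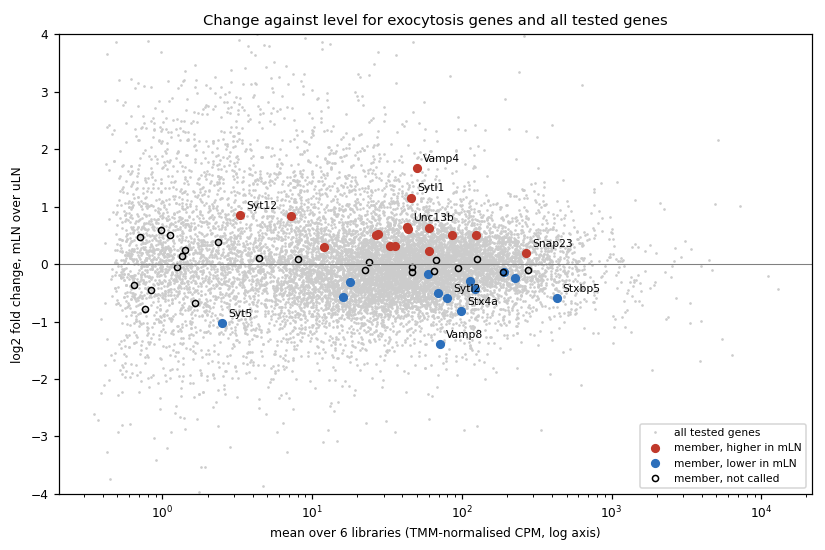
Log2 fold change (mLN over uLN) against the mean level over the 6 libraries in TMM-normalised CPM (log axis), for all 12706 tested genes (grey) and the tested exocytosis genes reported here (red, higher; blue, lower; open black, not called). Vamp4 is the highest and Vamp8 the lowest of the exocytosis genes, and 42 tested genes lie beyond the plotted range of 4 on the log2 scale.

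The vesicle-side SNAREs held both the largest rise and the largest fall. Syt5 fell by more than Stx4a, and its promoter is not shown. Promoter sequences are given for a pair of exocytosis genes with large rises and a pair with large falls, because these moved in opposite directions. They are from RefSeq's table of the GRCm38.p6 build. Each runs 5′ to 3′ from 250 bases before to 50 bases after the listed start of transcription, and capitals mark matches, on either strand, to the E-box letters CACGTG and CATGTG, to ACGTG (the core of the hypoxia response element, which also lies within CACGTG), or to the GATA motifs AGATAA and TGATAA.
Vamp4, chr1:162570265-162570564, plus strand: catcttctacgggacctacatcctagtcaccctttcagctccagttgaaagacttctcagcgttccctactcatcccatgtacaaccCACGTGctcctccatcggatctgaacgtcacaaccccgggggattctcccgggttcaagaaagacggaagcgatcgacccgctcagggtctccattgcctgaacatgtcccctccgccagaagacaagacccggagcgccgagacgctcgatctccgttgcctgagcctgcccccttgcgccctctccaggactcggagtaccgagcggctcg
Sytl1, chr4:133263038-133263337, minus strand: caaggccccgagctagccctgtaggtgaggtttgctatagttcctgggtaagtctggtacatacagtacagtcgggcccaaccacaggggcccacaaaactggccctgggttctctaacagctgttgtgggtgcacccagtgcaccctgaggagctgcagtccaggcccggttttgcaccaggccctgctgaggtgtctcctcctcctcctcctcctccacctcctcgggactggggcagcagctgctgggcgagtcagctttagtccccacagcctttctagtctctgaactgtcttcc
Vamp8, chr6:72390618-72390917, minus strand: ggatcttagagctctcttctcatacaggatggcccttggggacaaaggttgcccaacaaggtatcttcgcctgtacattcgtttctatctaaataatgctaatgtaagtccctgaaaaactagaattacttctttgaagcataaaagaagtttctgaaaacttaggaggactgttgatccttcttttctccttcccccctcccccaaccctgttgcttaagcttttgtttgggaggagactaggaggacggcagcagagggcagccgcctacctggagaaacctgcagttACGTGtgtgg
Stx4a, chr7:127841558-127841857, plus strand: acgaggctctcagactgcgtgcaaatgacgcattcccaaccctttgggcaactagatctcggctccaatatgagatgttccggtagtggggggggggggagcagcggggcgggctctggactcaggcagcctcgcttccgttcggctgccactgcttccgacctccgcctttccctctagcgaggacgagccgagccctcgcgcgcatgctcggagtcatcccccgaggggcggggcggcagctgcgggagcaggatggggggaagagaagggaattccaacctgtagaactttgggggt

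Vamp4 held a CACGTG match 163 bases upstream of its start, and Vamp8 an ACGTG match 40 bases downstream. None of these letters occurred in the Sytl1 and Stx4a windows. The Stx4a window, from 127841558 to 127841857, lies inside the gene, whose RefSeq start is at 127840643, so sequence before that start was not searched. Of the exocytosis genes, 50 had a promoter in the table. CACGTG was present in 4 of the 15 genes that rose (Vamp4, Stx6, Unc13b and Scamp1), in 2 of the 11 that fell (Stxbp2 and Napa), and in 7.24% of all 27025 promoters or 1019 of the 10180 promoters of tested genes. ACGTG was present in 4 of 15 that rose (the same 4 genes as for CACGTG) and 3 of 11 that fell. It was present in 19.7% of all promoters and 25.6% of those of tested genes. CATGTG was present in 0 of 15 and 2 of 11, AGATAA in 0 of 15 and 2 of 11, and TGATAA in 1 of 15 and 0 of 11, against 14.1%, 11.4% and 9.26% of all promoters and 8.97%, 6.64% and 4.26% of those of tested genes. Among the 16 that were tested and not called, CACGTG was present in 2, ACGTG in 4, CATGTG in 0, AGATAA in 2 and TGATAA in 1. A match is a description of these letters and not of a bound site.

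Of 8 VAMP genes 7 were tested, of which 3 rose and 1 fell. Over all tested genes 33.2% were called higher and 34.2% lower, shares that stand beside each class count below. Vamp8, the vesicle SNARE of lysosome-related and secretory granules that mouse mast cells use for degranulation, had 39.5, 41.5 and 37.5 CPM in mLN, against 101, 105 and 104 CPM in uLN. The libraries of the 2 groups did not overlap, and the mLN level was 2.62-fold lower (log2 fold change of -1.39 ± 0.05 (SE); adjusted p = 1.54e-08 in edgeR's quasi-likelihood test). Vamp4, which serves traffic between endosomes and the trans-Golgi network, had 72.1, 69.3 and 87.6 CPM in mLN, against 24.4, 25.1 and 22.2 CPM in uLN. All mLN libraries were above all uLN libraries, mLN replicate 3 was the highest, and the rise was 3.19-fold (log2 fold change of 1.67 ± 0.09 (SE); adjusted p = 1.55e-07 in the same edgeR test). Summed platelet markers were 1061 to 1251 CPM in mLN and 1957 to 2026 CPM in uLN. Most of that sum was Itga2b and Gp1ba, both lower in mLN. Pf4 and Gp9 were higher in mLN (log2 fold change of 3.20 and 1.28), at 51 reads or fewer in any library. Ppbp and Treml1 had at most 3 reads. Summed macrophage markers were 287.5 to 325.5 CPM in mLN and 350.9 to 493.7 CPM in uLN, with 3 markers higher (Adgre1, Cd68 and Marco) and 8 lower. Without Gpnmb the other 11 macrophage markers summed to 4014, 3935 and 4377 reads in mLN, against 2532, 3555 and 3029 reads in uLN, so that the direction of the sum turned. The part of either cell type in the fall of Vamp8 was not tested. The ratio of Vamp4 to Vamp8, each per kilobase of exon, was 1.06, 0.974 and 1.36 in mLN replicates 1, 2 and 3, against 0.141, 0.139 and 0.125 in uLN. On these lengths (3963 bases for Vamp4 and 2311 for Vamp8), Vamp4 came level with Vamp8 in mLN. Lengths here and below merge all annotated exons of a gene and can exceed that of the expressed transcript. Ranks, ratios and shares between genes depend on them.

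Vamp5, known from muscle, had 10.3, 9.34 and 8.38 CPM in mLN, against 6.08, 4.63 and 4.88 CPM in uLN (log2 fold change of 0.85 ± 0.14 (SE); adjusted p = 0.000384 in edgeR). Vamp5 lies at 72368049 to 72380468 and Vamp8 at 72385221 to 72390667 of chromosome 6 (RefSeq, GRCm38.p6), 4752 bases apart, so that neighbouring genes moved in opposite directions. Vamp1, a synaptobrevin, rose 1.41-fold, with 29.4, 29.7 and 35.0 CPM in mLN, against 21.6, 24.2 and 20.7 CPM in uLN (adjusted p = 0.000586 in edgeR). Its groups did not overlap.

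The other vesicle SNAREs of secretion were not called. Vamp2, a synaptobrevin, had 168, 173 and 195 CPM in mLN, against 197, 189 and 204 CPM in uLN, with overlapping groups (log2 fold change of -0.14 ± 0.06 (SE); adjusted p = 0.063 in edgeR). It passed without mLN replicate 3 (log2 fold change of -0.20, adjusted p = 0.000242 in edgeR), with no expression filter and with the replicate number as a block (adjusted p = 0.0329 and 0.0364 in edgeR). Vamp3, cellubrevin of recycling endosomes, had 57.7, 64.5 and 66.5 CPM in mLN, against 67.4, 65.0 and 71.7 CPM in uLN. Its log2 fold change was -0.11 with a 95% interval from -0.26 to 0.03 (adjusted p = 0.148, and 0.0298 without mLN replicate 3, in edgeR). Vamp7, the VAMP of lysosomes, had 23.4, 23.5 and 25.5 CPM in mLN, against 23.2, 25.9 and 21.8 CPM in uLN, and its 95% interval ran from -0.15 to 0.21 on the log2 scale. Vamp9 had 0 to 4 reads in any library and was removed by the filter. Per kilobase of exon, Vamp2 was the most abundant VAMP in both groups, with 44.96% ± 0.77 of the summed VAMP level in mLN and 43.5% ± 0.76 in uLN (SD, n = 3 each), leaving out Vamp7, for which the annotation gave no length. Vamp8 took 12.2% ± 1.3 in mLN and 27.97% ± 0.85 in uLN, and Vamp4 took 13.7% ± 0.995 in mLN and 3.78% ± 0.31 in uLN (SD, n = 3 each).

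**Figure D2:**
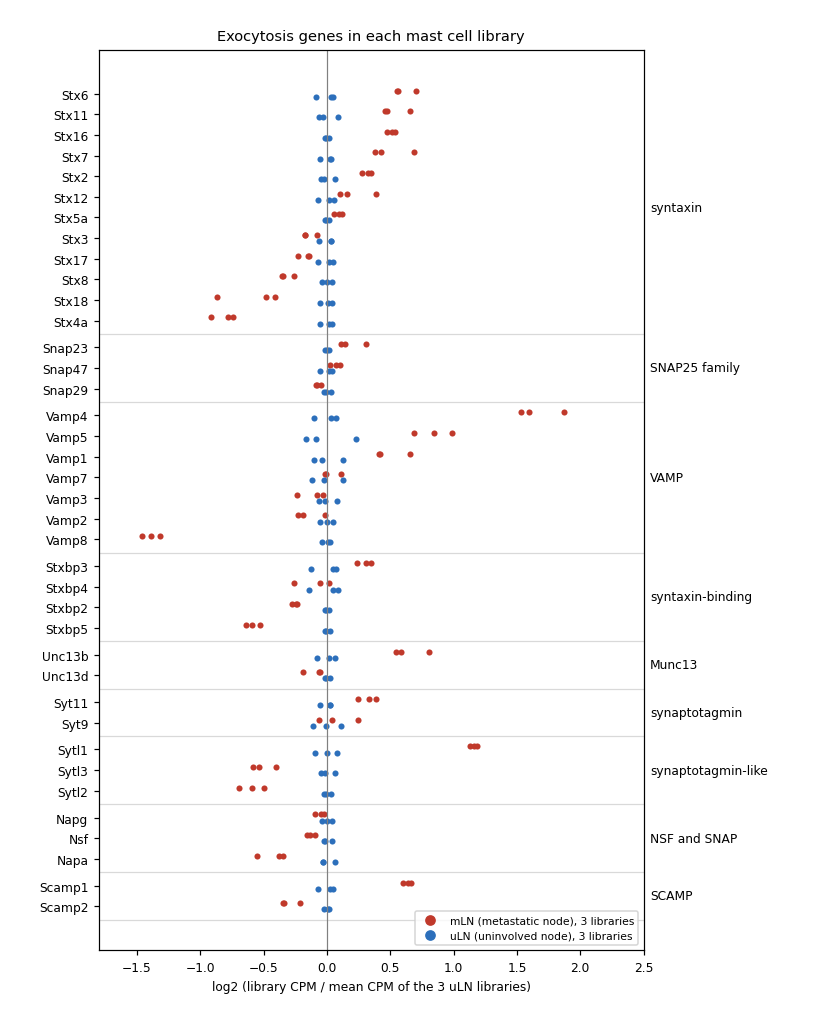
Each point is 1 library's level of 1 gene as log2 of its CPM over the mean of the 3 uLN libraries (red, mLN; blue, uLN), for the exocytosis genes reported here that had at least 5 CPM in both groups, sorted within each class. Vamp4 and Sytl1 lie above 1 in all 3 mLN libraries and Vamp8 lies below -1 in all 3, while Snap29, Snap47 and Vamp7 lie close to 0.

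Among 15 syntaxins, 14 were tested, and 6 rose and 5 fell. Of the 6 tested plasma membrane syntaxins, 2 rose, 2 fell and 2 were not called. Stx4a, the table's symbol for syntaxin 4, the main plasma membrane syntaxin of mast cell degranulation, had 72.8, 75.0 and 66.4 CPM in mLN, against 128, 121 and 127 CPM in uLN. Its mLN libraries all lay below its uLN libraries, and the fall was 1.75-fold (log2 fold change of -0.81 ± 0.06 (SE); adjusted p = 6.46e-07 in edgeR). Stx3, a syntaxin of granules and apical membranes, had 178, 178 and 190.3 CPM in mLN, against 205, 193 and 205 CPM in uLN (log2 fold change of -0.14 ± 0.05 (SE); adjusted p = 0.0222 in edgeR). Its groups did not overlap but lay close together, and its call was lost without each of mLN replicates 1 and 2 and uLN replicates 1 and 3, with adjusted p up to 0.0811. The ratio of Stx4a to Stx3 per kilobase of exon was 1.20, 1.24 and 1.03 in mLN, against 1.84, 1.84 and 1.82 in uLN.

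Stx11, which in humans is lost in a familial haemophagocytic disease, rose 1.45-fold, with 31.1, 31.4 and 35.6 CPM in mLN, against 24.02, 22.2 and 21.7 CPM in uLN (adjusted p = 0.000127 in edgeR). Stx2 rose 1.24-fold, and the neuronal form Stx1a had 7 to 24 reads per library and was not called. Stx19, an epithelial syntaxin, had 15, 6 and 8 reads in mLN replicates 1, 2 and 3, against 2, 1 and 1 in uLN, too few for the filter. Its highest value was in mLN replicate 1, where most keratinocyte, fibroblast, melanocyte and skeletal muscle markers were also highest. The part of those cells in its reads was not tested.

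The 5 endosomal and trans-Golgi syntaxins were all called, 4 higher and 1 lower, where 67.4% of all tested genes were called. Stx16 and Stx6, which pair with VAMP4 and VTI1A in a trans-Golgi complex, rose 1.42-fold and 1.52-fold. Stx16 had 148, 141 and 146 CPM in mLN, against 103, 101 and 102 CPM in uLN (adjusted p = 2.82e-06 in edgeR). Stx6 had 51.0, 51.3 and 56.5 CPM in mLN, against 35.5, 36.0 and 32.8 CPM in uLN (adjusted p = 1.41e-05 in edgeR), and neither gene's groups overlapped. Vti1a, the remaining partner, went the other way, with 37.0 ± 2.77 CPM in mLN and 58.0 ± 0.34 CPM in uLN (SD, n = 3 each; adjusted p = 7.15e-06 in edgeR).

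The late endosomal complex of STX7, STX8, VTI1B and VAMP8 likewise held genes of both directions. Stx7 rose 1.42-fold, with 93.1, 96.2 and 115 CPM in mLN, against 73.1, 68.6 and 72.6 CPM in uLN (adjusted p = 0.000178 in edgeR), while Stx8 fell 1.248-fold, with 15.7, 16.6 and 15.6 CPM in mLN, against 19.4, 19.9 and 20.4 CPM in uLN (adjusted p = 0.00219 in edgeR). Vti1b fell 1.65-fold (adjusted p = 6.69e-06 in edgeR) and Vamp8 fell as given above. These complexes are grouped from textbook knowledge after the values were seen, and are no test of the complexes themselves. Stx12, of early endosomes, had 61.5, 59.5 and 72.2 CPM in mLN, against 52.5, 55.8 and 57.5 CPM in uLN, and its call (adjusted p = 0.0243 in edgeR) was lost without uLN replicate 1 or 2, with adjusted p up to 0.111.

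Of the 3 syntaxins of the endoplasmic reticulum, Golgi and autophagosomes, Stx18 fell 1.48-fold, with 13.8, 14.5 and 10.5 CPM in mLN, against 19.3, 19.8 and 18.6 CPM in uLN (adjusted p = 0.00102 in edgeR). Stx17, which acts in autophagosome fusion, had 57.1, 56.7 and 53.7 CPM in mLN, against 63.6, 60.0 and 65.0 CPM in uLN. It fell 1.13-fold (adjusted p = 0.016 in edgeR), a call lost in DESeq2 (adjusted p = 0.0561) and without uLN replicate 1 or 3. Stx5a was not called.

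The 4 SNAP25 family genes held 1 called change. Snap23, the form that mast cells use at the plasma membrane, rose 1.14-fold, with 278, 272 and 312 CPM in mLN, against 252, 249 and 254 CPM in uLN (log2 fold change of 0.19 ± 0.06 (SE); adjusted p = 0.0101 in edgeR). Per kilobase of exon it was the most abundant of all exocytosis genes in both groups, at 104 ± 7.9 CPM per kb in mLN and 91.3 ± 1.0 in uLN (SD, n = 3 each). Snap29 and Snap47 were not called, with 95% intervals from -0.17 to 0.03 and from -0.05 to 0.18 on the log2 scale.

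Snap25, the neuronal form, had 14.7, 24.1 and 27.0 reads in mLN, against 15.3, 43.6 and 8.04 in uLN. Its groups overlapped, and its log2 fold change was -0.04 with a 95% interval from -1.20 to 1.11 (adjusted p = 0.946 in edgeR). Without uLN replicate 2 it was 0.90 (adjusted p = 0.105), and without mLN replicate 1 as well it was 1.12 and called (adjusted p = 0.0425 in edgeR).

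Proteins that bind syntaxins either guide them into SNARE bundles or hold them back. Stxbp2 (Munc18-2), the main form of mast cells, fell 1.19-fold, with 203, 208 and 209 CPM in mLN, against 244, 245 and 249 CPM in uLN (adjusted p = 0.000269 in edgeR). Its groups did not overlap, and it was the next most abundant exocytosis gene after Snap23 per kilobase of exon in both groups, at 71.0 ± 1.1 CPM per kb in mLN and 84.5 ± 0.92 in uLN (SD, n = 3 each). Stxbp3 (Munc18-3), the partner of syntaxin 4, had 13.7, 12.7 and 13.3 CPM in mLN, against 9.86, 11.2 and 11.3 CPM in uLN, and its call (adjusted p = 0.0153 in edgeR) was lost without mLN replicate 1 or uLN replicate 1, with adjusted p up to 0.0734.

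Stxbp5 (tomosyn), which binds syntaxins in place of a VAMP and restrains fusion, fell 1.503-fold. It had 341, 330.5 and 357 CPM in mLN, against 524, 510.0 and 512 CPM in uLN (log2 fold change of -0.59 ± 0.04 (SE); adjusted p = 1.08e-06 in edgeR), and the groups did not overlap. Stxbp4, Stxbp5l and Stxbp6 were not called, the last 2 of these at 16.1 to 31.1 and 7.63 to 18.2 reads per library.

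Unc13d (Munc13-4), the priming factor of mast cell and lymphocyte granules, was the dominant Munc13 form in both groups, at 95.4% ± 0.70 of the class per kilobase of exon in mLN and 97.2% ± 0.080 in uLN (SD, n = 3 each). It had 276, 275 and 251 CPM in mLN, against 286, 291 and 284 CPM in uLN. Its groups lay just apart and it was not called (log2 fold change of -0.10, 95% interval from -0.21 to 0.00; adjusted p = 0.0816 in edgeR). With no expression filter it passed (adjusted p = 0.0446 in edgeR), and in no other alternative, DESeq2 included (adjusted p = 0.152). Unc13b (Munc13-2) rose 1.57-fold, with 49.8, 48.5 and 58.0 CPM in mLN, against 33.5, 31.4 and 34.8 CPM in uLN (adjusted p = 3.48e-05 in edgeR). Unc13a and Unc13c, neuronal forms, had 15 to 32 and 0 to 13 reads per library.

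The synaptotagmin-like proteins tie vesicles to the plasma membrane through RAB27, and 1 of them rose while 2 fell. Sytl1 rose 2.24-fold, with 63.8, 64.7 and 62.4 CPM in mLN, against 26.7, 30.1 and 28.5 CPM in uLN (log2 fold change of 1.16 ± 0.06 (SE); adjusted p = 9.07e-08 in edgeR). Sytl2 fell 1.51-fold, with 63.1, 67.6 and 59.0 CPM in mLN, against 94.7, 93.9 and 97.4 CPM in uLN (adjusted p = 6.95e-06 in edgeR), and Sytl3 fell 1.42-fold, with 61.4, 55.9 and 54.1 CPM in mLN, against 80.3, 78.6 and 84.97 CPM in uLN (adjusted p = 2.98e-05 in edgeR). None of these had overlapping groups. Sytl1 made up 46.3% ± 0.98 of the class's summed level per kilobase of exon in mLN and 20.9% ± 1.2 in uLN (SD, n = 3 each), while that summed level was 70.4 ± 2.5 CPM per kb in mLN and 69.7 ± 1.8 in uLN. Sytl4 (granuphilin) had 10.6, 8.51 and 9.64 reads in mLN, against 7.55, 13.4 and 16.7 in uLN, and was not called.

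Their partner Rab27a rose 2.24-fold, with 62.2 ± 4.1 CPM in mLN and 27.8 ± 0.36 CPM in uLN (SD, n = 3 each; adjusted p = 1.32e-07 in edgeR). Its paralog Rab27b was not called (385 ± 14 CPM in mLN and 399 ± 15 CPM in uLN, SD, n = 3 each; adjusted p = 0.344 in edgeR).

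**Figure D3:**
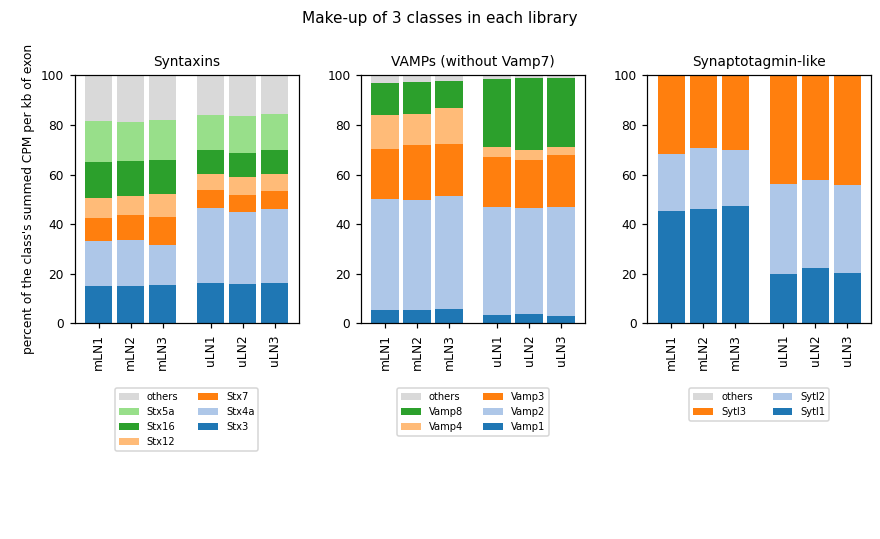
Share of each gene in the summed CPM per kilobase of exon of its class, for each of the 3 mLN and 3 uLN libraries (Vamp7 has no length and is left out; genes with small shares are joined as others). Vamp8 and Stx4a take smaller shares in every mLN library than in every uLN library, and Vamp4 and Sytl1 take larger ones.

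Synaptotagmins were few in these cells. Of 17 genes, 8 were removed by the filter, and over the class the summed level was 14.3 ± 0.52 CPM per kb in mLN and 12.7 ± 0.74 in uLN (SD, n = 3 each). Syt11, a form that does not bind calcium, made up 53.8% ± 0.78 of it in mLN and 48.5% ± 1.9 in uLN (SD, n = 3 each) and rose by a log2 fold change of 0.32, with 37.7, 40.0 and 41.6 CPM in mLN, against 32.2, 32.3 and 30.6 CPM in uLN (adjusted p = 0.000878 in edgeR). Syt12 rose 1.80-fold at a low level, with 72.0, 67.8 and 87.6 reads in mLN, against 47.5, 37.5 and 38.5 reads in uLN (adjusted p = 0.00355 in edgeR). Syt5, a calcium sensor of dense-core vesicles, fell 2.03-fold, with 28, 26 and 34 reads in mLN, against 45, 74 and 57 in uLN (adjusted p = 0.00366 in edgeR). Its uLN libraries were all above its mLN libraries and uLN replicate 2 was the highest. Syt9, which is known from rat mast cell lines, was not called at 138 to 168 reads in mLN and 127 to 148 in uLN. Syt2, also studied in rat mast cell lines, had 6.97, 3.86 and 5 reads in mLN, against 6, 7.68 and 6 in uLN. Syt7, a high-affinity calcium sensor of lysosomes, had 22 to 26 reads in mLN and 9 to 21 in uLN and was not called. Syt1, Syt3, Syt14 and Syt15 were tested and not called, and Syt14 passed in edgeR without uLN replicate 2 (adjusted p = 0.0315, against 0.101 with all libraries). Syt2, Syt4, Syt6, Syt8, Syt10, Syt13, Syt16 and Syt17 were removed by the filter, at 0 to 27 reads in any library.

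Of the 3 NSF and SNAP genes 1 fell, and of the 2 SCAMP genes 1 rose and 1 fell. Napa (alpha-SNAP), the adaptor that brings NSF to SNARE bundles, fell 1.34-fold, with 109.8, 107 and 95.2 CPM in mLN, against 146, 137 and 137 CPM in uLN (adjusted p = 0.000107 in edgeR). Nsf had 44.2, 45.5 and 43.4 CPM in mLN, against 47.7, 47.9 and 49.9 CPM in uLN. Its groups did not overlap but it just missed the threshold (95% interval from -0.25 to -0.01 on the log2 scale, adjusted p = 0.0514 in edgeR). It passed with no expression filter (adjusted p = 0.0379 in edgeR) and in no other alternative, DESeq2 included (adjusted p = 0.198). Napg (gamma-SNAP) had 44.1, 45.6 and 46.3 CPM in mLN, against 47.0, 48.5 and 45.7 CPM in uLN and was not called. Scamp1, a carrier membrane protein of recycling vesicles, rose 1.55-fold, with 74.0, 72.2 and 75.4 CPM in mLN, against 45.2, 48.3 and 49.2 CPM in uLN (adjusted p = 2.34e-06 in edgeR). Scamp2 fell 1.23-fold, with 99.2, 108 and 98.8 CPM in mLN, against 126, 123 and 127 CPM in uLN (adjusted p = 0.000356 in edgeR). Both SCAMP genes had groups that did not overlap.

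Several low forms peaked in single libraries. Cplx2 (complexin 2), which acts in exocytosis of rat mast cell lines, had 64.7, 75.5 and 104 reads in mLN, against 74.8, 109 and 38.5 in uLN, and was not called (adjusted p = 0.773 in edgeR). Of the 26 exocytosis genes with fewer than 150 reads in every library, 8 were highest in uLN replicate 2 (Snap25, Unc13c, Syt1, Syt2, Syt5, Syt6 and Cplx2 among them), against 2 to 6 in each of the other libraries. The same share over all low genes is not given here. Reads were found for 16120 genes in uLN replicate 2, 15818 and 15639 in uLN replicates 1 and 3, and 16218, 15851 and 15854 in mLN. Syt1, the synaptic calcium sensor, had 5, 11 and 14 reads in mLN, against 12, 31 and 8 in uLN. Of the 18 neuronal markers 10 were tested, and the others were too low for the filter. The 15 without a call, tested or not, had 137, 169 and 193 reads together in mLN, against 181, 296 and 103 in uLN. Their sum was thus also highest in uLN replicate 2. Over all 18 neuronal markers the summed level was 44.0 to 52.5 CPM in mLN and 18.0 to 32.2 CPM in uLN, and none was at 0 in all libraries. Of these, Eno2 and Dcx were higher in mLN and Tubb3 was lower, and Eno2 took 683, 523 and 647 reads in mLN, against 68.3, 99.3 and 58.7 in uLN. The part of neuronal or neuroendocrine RNA in these genes was not tested. Syt8, an epithelial form, had 27, 5 and 8 reads in mLN, against 2, 7 and 1 in uLN, and like Stx19 peaked in mLN replicate 1.

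**Figure D4:**
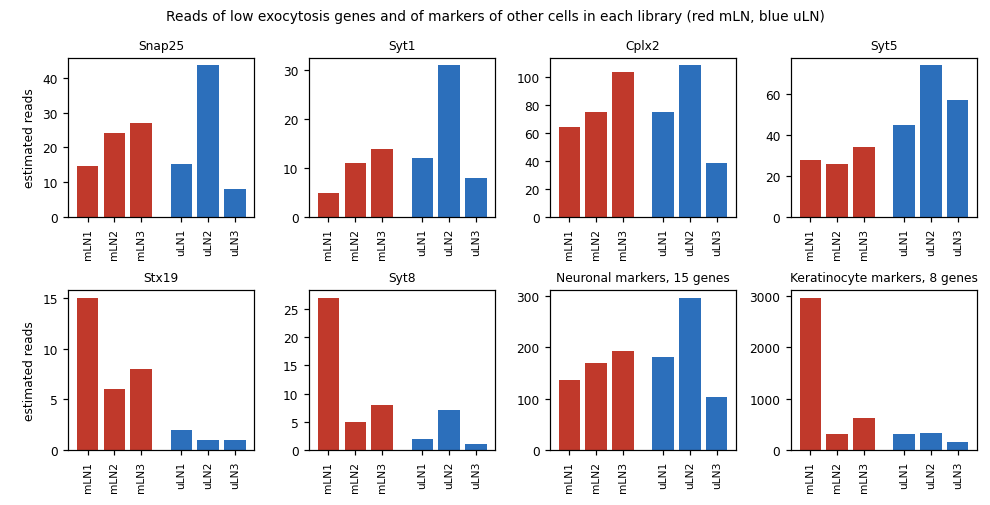
Estimated reads per library (red bars, mLN; blue bars, uLN; each axis starts at 0) of 6 low exocytosis genes, of the 15 neuronal markers without a call (some too low to be tested) and of the 8 keratinocyte markers. Snap25, Syt1, Cplx2, Syt5 and the neuronal markers are highest in uLN replicate 2, and Stx19, Syt8 and the keratinocyte markers in mLN replicate 1.

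The rest of the pathway was described from 5 lists of genes outside the rule, read against the 67.4% of all tested genes that were called. Of 25 tested genes of other SNAREs, their binding partners and SM proteins, 3 rose, 13 fell and 9 were not called (median log2 fold change of -0.19). The number that rose was 5 with other scaling factors. Vps33a, the SM protein of the lysosomal HOPS tether, fell 2.37-fold, with 48.9 ± 4.2 CPM in mLN and 116 ± 2.0 CPM in uLN (SD, n = 3 each; adjusted p = 8.10e-08 in edgeR), and Txlna, a syntaxin-binding taxilin, fell 1.59-fold (adjusted p = 7.45e-06 in edgeR). Of 35 tested genes of secretory RAB GTPases and their regulators, 11 rose, 10 fell and 14 were not called. Rab11b, of recycling endosomes, fell 2.35-fold, Madd, an exchange factor for RAB3 and RAB27, fell 2.36-fold, and Rab35 fell 1.85-fold (adjusted p = 6.86e-08, adjusted p = 1.24e-08 and adjusted p = 2.52e-06 in edgeR).

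Of 20 tested exocyst and lysosomal tethering genes, 4 rose and 11 fell (median log2 fold change of -0.18). Exoc3 fell 1.64-fold, Vipas39 1.44-fold and Vps18 1.38-fold, while Exoc6b rose 1.39-fold (adjusted p = 2.68e-07, adjusted p = 4.26e-06, adjusted p = 1.90e-05 and adjusted p = 1.87e-05 in edgeR). Of 27 granule and lysosome-related organelle genes, 10 rose, 12 fell and 5 were not called. Lamp1, a lysosomal membrane glycoprotein that reaches the cell surface on degranulation, rose 2.15-fold, with 684 ± 42 CPM in mLN and 319 ± 11 CPM in uLN (SD, n = 3 each; adjusted p = 6.01e-08 in edgeR), and Bloc1s1 fell 2.28-fold (adjusted p = 2.89e-07 in edgeR). Ndst2, which sulfates the heparin of mast cell granules, fell 2.58-fold, and Cd63, a tetraspanin of granule membranes, fell 2.14-fold (adjusted p = 2.33e-08 and adjusted p = 1.18e-08 in edgeR). Of 29 genes of calcium entry and signalling upstream of degranulation, 7 rose, 15 fell and 7 were not called. Itpr3, an IP3-gated calcium channel, rose 2.54-fold, and Kcnn4, a potassium channel that sustains calcium entry, fell 2.39-fold (adjusted p = 8.14e-08 and adjusted p = 1.15e-07 in edgeR). Lat, the adaptor of the IgE receptor pathway, and Btk, a kinase of the same pathway, fell 2.08-fold and 1.62-fold (adjusted p = 6.01e-08 and adjusted p = 3.78e-07 in edgeR).

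For the 39 exocytosis genes with at least 5 CPM in both groups, the median coefficient of variation was 5.30% in mLN and 3.60% in uLN. In mLN, replicate 3 lay farthest from the group median for 23 of these genes, replicate 2 for 10 and replicate 1 for 6, against 13, 14 and 12 for uLN replicates 1, 2 and 3. Counts of 30 of the 65 genes, Stx4a, Vamp4, Snap23 and Stxbp2 among them, were not whole in at least 1 library. Estimated counts take such values where reads are shared between genes or transcripts, and the sources used here do not say how they were shared.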

How the data were processed

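Messenger RNA libraries of mast cells from mouse lymph nodes were made with a DNBSEQ kit, per the labels' protocols. The submitters' processing notes name cutadapt, FastQC, TopHat and the GRCm38 build; the tool that counted reads and its use of strand are not stated in the sources used here. The deposited values are estimated counts per gene, of which 32.2% to 32.8% in each library are not whole, and they were rounded before testing. Of 17891 rows, 1 named no gene, held no values and was left out. Genes were filtered with filterByExpr (12706 kept, 5184 removed), scaled by TMM and tested with edgeR 4.0.16 (R 4.3.3, limma 3.58.1) by its quasi-likelihood test, after the code was tested on simulated data. Alternatives were other scaling, other filters, a fixed biological coefficient of variation of 0.2, DESeq2 1.42.0, the replicate number as a block, and leaving out libraries. Lengths are merged exons of GENCODE M21, found for 64 of 65 genes, and promoters are from RefSeq's GRCm38.p6 table. Depth limits low genes: a count of 0 allows 3 reads, or 0.164 to 0.172 CPM, for counting error only. All of the rule's genes were accounted for by class, and those given with every library value were a set of main exocytosis genes and the called genes with the largest changes; up to 4 called genes per further list were named in order of adjusted p. The genes and lists were chosen with earlier results of these data known. Some genes that the rule takes are counted but not reported here.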

Additional observations from a re-analysis of the deposited data

How the results depend on the processing

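The count of exocytosis genes called was 17 higher and 13 lower as reported, and leaving out 1 library gave 15 to 17 higher and 11 to 15 lower. With no expression filter it was 18 higher and 16 lower, 1 of them a gene that the filter had removed. With the biological coefficient of variation set to 0.2 for every gene, a larger spread than these libraries showed (6.49%), it was 8 higher and 5 lower, and over all genes 2145 higher and 1913 lower, against 4219 and 4347 as reported. Under that setting the further lists had 1 higher and 8 lower among other SNAREs, and 5 and 6 among secretory RABs. There were 0 and 3 among tethering genes, and 1 and 4 among granule genes. Of the calcium and signalling genes 8 were lower, while the number higher stayed within 1.5-fold of the 7 as reported. The other SNAREs had 5 higher with RLE factors, with library totals alone and with a mean of at least 5 CPM; the cause was not tested. The deviations of same-numbered libraries had correlations of 0.0363, -0.133 and 0.00914, within the -0.173 to 0.181 of differently numbered ones. With 3 libraries per group these values show no pairing by number but cannot exclude it. The replicate block gave 17 higher and 14 lower. Snap25 reversed, to a log2 fold change of 0.0945 with the replicate block and to 1.12 without mLN replicate 1 and uLN replicate 2, and ranged from -0.45 to 0.90 when 1 library was left out. Vamp7 ranged from -0.0335 to 0.1011 and Cplx2 from -0.21 to 0.49 when 1 library was left out, and without mLN replicate 1 and uLN replicate 2 they were at 0.13 and 0.65. Low genes are limited by depth: those under 150 reads can be moved by 1 library. Nothing ties libraries to animals, and the 17 called changes under 1.5-fold were not called with the coefficient set to 0.2.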
